A study of Mus musculus with 5 samples.

Results

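Epithelial cells hold together through cadherins, tight junctions and desmosomes, and carry keratin filaments inside. The genes described here are 10 components or regulators of that system, measured in mouse cells of 2 kinds, embryonic stem cells (ESCs) and embryonic fibroblasts (MEFs): the adhesion receptor genes Cdh1 and Epcam, the claudin genes Cldn4, Cldn6 and Cldn7, the desmosome gene Dsp, the keratin genes Krt8, Krt18 and Krt19, and the splicing regulator gene Esrp1. They were taken by gene symbol from the 19938 genes that the platform annotation ties to a probe set of their own. All 10 were found, each with 1 such probe set. Total RNA of 5 samples had been hybridised to whole-transcript arrays, 1 array per group. The stem cells came as 2i ESCs or S ESCs. The fibroblasts came as 4n 2i MEFs, as 2n 2i MEFs or as control MEFs. All 5 samples share the background F1 of 129X1/SvJ X MSM/Ms. The name 2i usually stands for culture with inhibitors of MEK and GSK3. The labels do not say what S, 2n and 4n stand for, so they serve as names here. Titles also carry a first number, 15 for 2i ESCs and 2n 2i MEFs alike, 36 for S ESCs, 2 for 4n 2i MEFs and 4 for control MEFs, so arrays of different groups mostly differ in that number too. The titles of 2n 2i MEFs and 4n 2i MEFs also carry a second number, which was not used here. The labels give no age, sex or passage and do not tie the samples to cultures or embryos. P-values therefore measure the spread between these samples only. That spread holds differences between groups of a cell type, since each group had 1 array, and an unknown technical part.

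As background, E-cadherin, the product of Cdh1, joins neighbouring cells and is anchored to actin through catenins. Mouse ESCs grow as compact colonies held together by E-cadherin although they are not an epithelium, and EpCAM is also present on their surface. Claudins seal tight junctions, desmoplakin (Dsp) ties keratin filaments to desmosomes, keratins 8 and 18 pair in simple epithelia, and Esrp1 directs the splicing of epithelial isoforms. Fibroblasts are mesenchymal cells, in which transcription factors of the epithelial-to-mesenchymal transition (EMT), of the Snail, Zeb and Twist families, repress epithelial genes such as Cdh1. Snail and Zeb factors bind an E-box, CACCTG.

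The RefSeq promoter table of GRCm38.p6 held 8 windows for 7 of the 10 genes, with none for Cdh1, Krt19 or Esrp1. The 4 printed are those of the genes whose values differed most between the ESC arrays among the 7 (Epcam, Cldn6 and Krt8) and of Cldn4, which differed the other way. Each is the 250 bases before the transcription start, read on the strand of the gene: Epcam at chr17:87635729-87635978 on the plus strand, Cldn6 at chr17:23679115-23679364 on the plus strand, Krt8 at chr15:102004343-102004592 on the minus strand and Cldn4 at chr5:134946935-134947184 on the minus strand. Capitals mark CACCTG or its reverse complement CAGGTG.
Epcam: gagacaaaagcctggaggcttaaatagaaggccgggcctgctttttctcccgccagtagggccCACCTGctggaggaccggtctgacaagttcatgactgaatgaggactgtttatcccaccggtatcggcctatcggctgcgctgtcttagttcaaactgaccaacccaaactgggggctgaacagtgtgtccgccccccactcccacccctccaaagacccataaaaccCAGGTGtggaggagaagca
Cldn6: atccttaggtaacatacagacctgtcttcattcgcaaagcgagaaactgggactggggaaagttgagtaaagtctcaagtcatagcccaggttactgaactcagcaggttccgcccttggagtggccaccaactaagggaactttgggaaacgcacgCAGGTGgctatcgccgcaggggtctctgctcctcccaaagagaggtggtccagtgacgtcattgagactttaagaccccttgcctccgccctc
Krt8: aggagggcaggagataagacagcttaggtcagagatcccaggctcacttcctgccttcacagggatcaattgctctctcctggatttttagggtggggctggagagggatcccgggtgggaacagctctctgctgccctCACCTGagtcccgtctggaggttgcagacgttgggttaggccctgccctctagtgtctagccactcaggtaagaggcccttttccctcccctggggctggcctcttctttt
Cldn4: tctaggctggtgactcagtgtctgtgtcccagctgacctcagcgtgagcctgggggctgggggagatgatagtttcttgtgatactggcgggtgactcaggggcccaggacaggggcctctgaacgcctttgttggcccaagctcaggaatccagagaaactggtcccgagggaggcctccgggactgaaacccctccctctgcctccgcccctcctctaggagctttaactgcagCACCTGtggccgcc
CACCTG on either strand stood in 6 of the 8 windows, belonging to 6 genes (Epcam, Cldn4, Cldn6, Cldn7, Krt8 and Krt18), against 17.2% of 32851 windows of this length in the table. The window of Dsp and the upstream one of the pair for Cldn7 held none. Epcam had 2 matches, which begin 187 and 19 bases before the start, and its window also held ACCGGT, the core of the motif of Grainyhead-like factors, at 2 places. ACCGGT stood in 1.86% of all windows and in 1 of these 8. GGGCGG, the GC box, stood in 5 of the 8 and in 32.7% of all windows, CACGTG in none of the 8 (6.02% of all) and TATAAA in none (12.4%). No CACCTG match overlapped a match of the other 4 motifs searched. A match gives letters in a window and no evidence of binding.

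Since each group had 1 array, single arrays were compared without a test, neighbouring values in any order given have no spread to set them apart, and the number of arrays limits the precision. Values are the authors' linear intensity units. A gene is described for a pair of arrays where its brighter value was at or above a floor. The floor is the median over probe sets with a gene name on that array, and lay between 217.9 and 240.1 intensity units. Values under the floor hold an unknown part of background. The deposited MEF values carried a feature that touches most of the 10 genes: identical values on different arrays. On the MEF arrays 5 of the 10 genes (Cdh1, Epcam, Cldn4, Cldn7 and Esrp1) had the same value on all 3, and Cldn6 and Krt18 had the same value on 2. Of all 19938 genes 30.3% had the same value on the 3 MEF arrays. The share was 53.8% among 9497 genes under the floor on all of them and 8.91% among the other 10441. No probe set had the same value on an ESC and a MEF array. Identical values are not read as measured equality, and a spread of 0 between MEF arrays is not a measured spread. Markers went with the cell type labels. All 6 pluripotency markers (Pou5f1, Nanog, Sox2, Zfp42, Esrrb, Tdgf1) reached the floor on both ESC arrays and none on any MEF array, and all 8 fibroblast markers did so on every MEF array, against 3 on the 2i ESC array and 4 on the S ESC array.

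**Figure D1:**
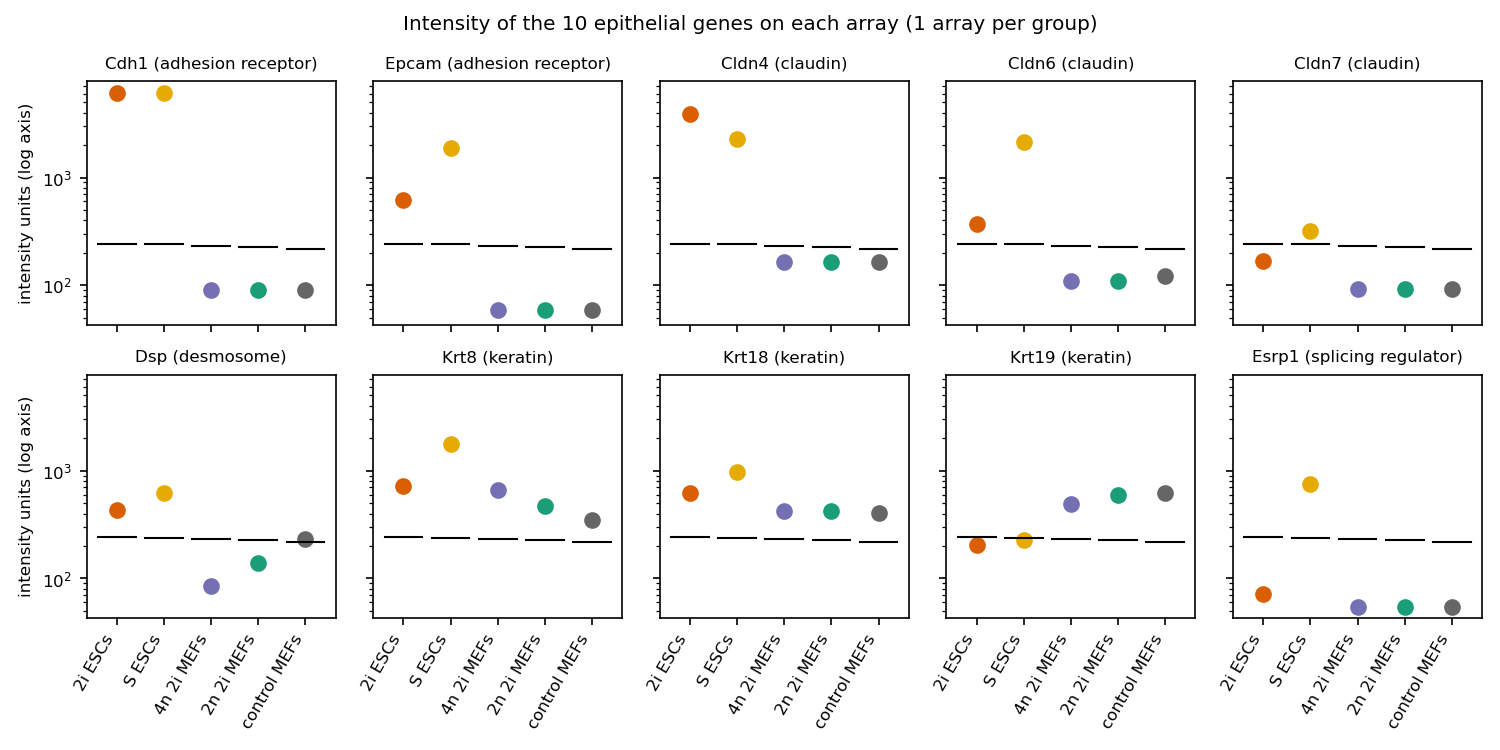
Intensity (log axis) of the 10 genes on the 5 arrays. Each point is 1 array and each short black line is the floor of that array. Cdh1, Epcam, Cldn4, Cldn6, Cldn7 and Esrp1 lie under the floor on every MEF array, whereas the keratins lie above it there.

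The first comparison set the 2 ESC arrays against the 3 MEF arrays, which asks how far these genes separate the cell types. Cell-surface adhesion and junction genes were higher in ESCs, while the keratins did not move as a group. Of the 10 genes, 6 rose in ESCs (Cdh1, Epcam, Cldn4, Cldn6, Cldn7, Dsp) and 1 fell (Krt19) in limma (threshold 0.05 on the adjusted p, and 2-fold). Krt8, Krt18 and Esrp1 did not pass both criteria. Over 11855 genes tested, 16.6% were called higher and 16.2% lower, 32.9% in all. The median log2 difference of the 10 genes was 1.98, against 0.06 over all genes tested. The floor favours these counts, since Cdh1, Epcam, Cldn4, Cldn6, Cldn7 and Esrp1 reached it on ESC arrays alone and Krt19 on MEF arrays alone. With no floor the counts were the same. In this fit the identical MEF values of Cdh1, Epcam, Cldn4, Cldn7 and Esrp1 add no measured spread. Their SEs, intervals and p-values below may therefore be too small, as in part may those of Cldn6 and Krt18. The same holds for other genes with identical MEF values.

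Of the 10 genes Cdh1 differed most between the cell types. Cdh1 had 6027 intensity units in 2i ESCs and 6133 in S ESCs, against 90.6 in 4n 2i MEFs, 90.6 in 2n 2i MEFs and 90.6 in control MEFs. The ESC arrays were nearly alike and lay far above every MEF array. The log2 difference was 6.05 ± 0.08 (SE; adjusted p = 5.77e-05 in limma), or 66.4-fold, with ESCs at 12.57 ± 0.02 (log2, SD, n = 2) and MEFs at 6.52 (n = 3, identical values). Epcam, whose product mediates weak contacts between like cells and regulates claudins, had 625 units in 2i ESCs and 1861 in S ESCs, against 59.6 on each of the 3 MEF arrays. It was higher on both ESC arrays, with a log2 difference of 4.16 ± 0.48 (SE; adjusted p = 0.00296 in limma), and its ESC values lay wide apart (10.08 ± 1.11, log2, SD, n = 2).

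Each of the claudins rose in ESCs, by different amounts. Cldn4, a claudin of tight epithelia, had 3841 units in 2i ESCs and 2276 in S ESCs, against 164.6 on each MEF array, a log2 difference of 4.16 ± 0.24 (SE; adjusted p = 0.000565 in limma). Cldn6, a claudin of embryonic epithelia, had 372 units in 2i ESCs and 2123 in S ESCs, against 109 in 4n 2i MEFs, 109 in 2n 2i MEFs and 123 in control MEFs. Its log2 difference of 2.96 ± 0.77 (SE; adjusted p = 0.0291 in limma) rested mainly on the S array, although both ESC values lay above all MEF values. Cldn7, a claudin that EpCAM binds, had 169.5 units in 2i ESCs, under the floor, and 317 in S ESCs, against 92.5 on each MEF array, a log2 difference of 1.32 ± 0.28 (SE; adjusted p = 0.0169 in limma).

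Dsp, the desmosomal plaque gene, had 435 units in 2i ESCs and 617 in S ESCs, against 84.2 in 4n 2i MEFs, 140.0 in 2n 2i MEFs and 234.6 in control MEFs. It was the only one of the 6 risen genes with 3 distinct MEF values, and control MEFs reached the floor. The log2 difference was 1.88 ± 0.48 (SE; adjusted p = 0.0274 in limma).

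The keratins differed from one another. Krt8, a type II keratin of simple epithelia, had 717 units in 2i ESCs and 1776 in S ESCs, against 664 in 4n 2i MEFs, 473 in 2n 2i MEFs and 351 in control MEFs. The 2i ESC value lay just above the 4n 2i MEF value, and the log2 difference of 1.23 (95% interval -0.08 to 2.54; adjusted p = 0.0910 in limma) did not pass. Its type I partner Krt18 had 615 units in 2i ESCs and 960 in S ESCs, against 424 in 4n 2i MEFs, 424 in 2n 2i MEFs and 400.4 in control MEFs. All ESC values lay above all MEF values, but the log2 difference of 0.88 ± 0.21 (SE; adjusted p = 0.0231 in limma) was under 2-fold. Krt19, a type I keratin that lacks the tail domain, went the other way. It had 205 units in 2i ESCs and 229 in S ESCs, both under the floor, against 491 in 4n 2i MEFs, 588 in 2n 2i MEFs and 621 in control MEFs. The log2 difference was -1.37 ± 0.14 (SE; adjusted p = 0.00207 in limma), a 2.59-fold lower level in ESCs.

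Esrp1 had 72.1 units in 2i ESCs and 752 in S ESCs, against 54.6 on each MEF array. It passed the floor on the S ESC array alone, and the difference between cell types (2.08, 95% interval -0.66 to 4.81; adjusted p = 0.146 in limma) did not pass. With the S ESC array alone against the MEF arrays the log2 difference was 3.76, but the identical MEF values leave that fit no spread of its own for Esrp1 and its p is not given.

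**Figure D2:**
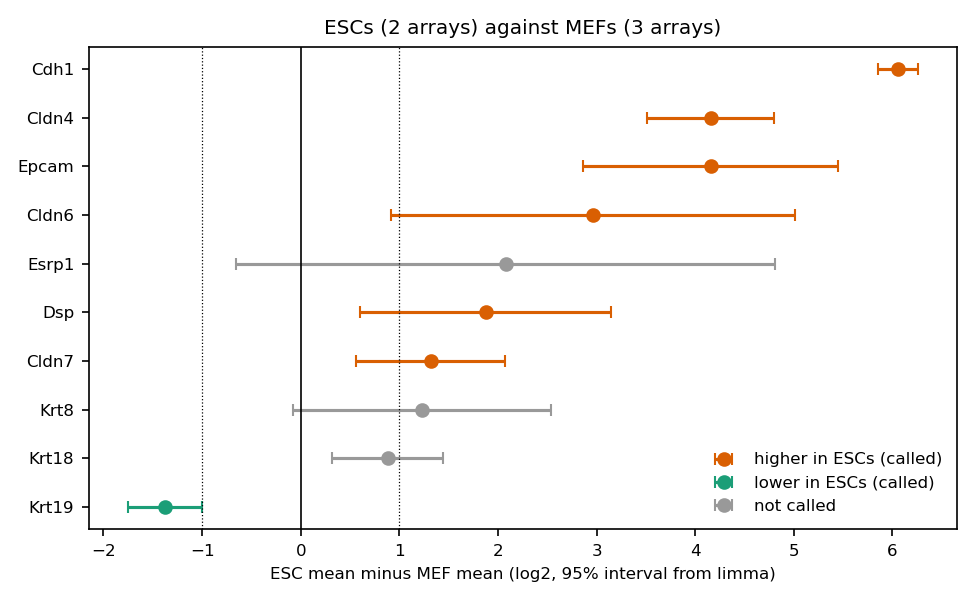
ESC mean minus MEF mean of the 10 genes on the log2 scale, with 95% intervals from limma. Dotted lines mark 2-fold. Cdh1 (6.05) is highest and Krt19 (-1.37) is the gene below 0. Intervals of Cdh1, Epcam, Cldn4, Cldn7 and Esrp1 hold no measured MEF spread, since their MEF values are identical. Interval widths therefore do not compare precision between genes.

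Several of these calls depended on a single array. Without the 2n 2i MEF array, Cldn6, Cldn7 and Dsp lost their calls, leaving 3 genes higher. Cldn6 also lost its call without the 4n 2i MEF array or without the control MEF array, and Dsp without either ESC array, while the log2 difference of Krt18 was 1.20 without the 2i ESC array, past both criteria. Cdh1, Epcam, Cldn4 and Krt19 kept their calls with any MEF array left out. For Cdh1, Epcam and Cldn4 this is no check of the MEF side, since identical MEF values cannot move the log2 difference. Without the S ESC array Cldn7 and Esrp1 were under the floor. A lone ESC array is assumed in that fit to vary like the MEF arrays. For Cdh1, Epcam, Cldn4, Cldn7 and Esrp1, whose MEF values are identical, and in part for Krt18 and Cldn6, calls with 1 ESC array therefore rest on no measured spread and say little. The spread in this fit is that between conditions, since each condition had 1 array.

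Other genes of the same systems gave these counts, from lists chosen with earlier results of these data known. They stand beside the 16.6% higher and 16.2% lower over all genes, and a list of few genes with 1 call is near that share. Among epithelial regulators and surface proteins 11 of 12 genes past the floor were higher in ESCs and none lower (median log2 difference 2.31). The floor favours this count, since of 15 measured genes 2 reached it in 4n 2i MEFs and 1 each in 2n 2i MEFs and control MEFs. With no floor 11 of 15 were higher and none lower, with a median of 2.06. The largest differences were in the epithelial transcription factor gene Elf3 (4.51), the protease inhibitor gene Spint1 (4.15), the Grainyhead-like gene Grhl3 (3.88), the membrane protease gene St14 (3.70), which Spint1 inhibits, the protease gene Prss8 (2.81) and the transcription factor gene Klf5 (2.46). Without the S ESC array 6 of 8 were higher. Among tight junction genes 5 of 14 rose (Ocln at 2.58, Lsr at 1.55, Tjp3 at 1.44, Cldn3 at 1.15 and Cldn5 at 1.03) and 1 fell, Cldn1 (-3.45), with a median of 0.78. The 5 that rose lay under the floor on every MEF array, and with no floor 6 of 18 rose and 1 fell. Cldn1 had 56.6 units in 2i ESCs and 75.6 in S ESCs, against 626 in 4n 2i MEFs, 749 in 2n 2i MEFs and 814 in control MEFs.

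Adherens junction genes did not follow Cdh1. Of 11, none rose and 3 fell in ESCs, the N-cadherin gene Cdh2 (-2.92), the P-cadherin gene Cdh3 (-2.40) and the vinculin gene Vcl (-1.88), and the median was -0.42. The catenin genes Ctnnb1 (0.14), Ctnna1 (0.28) and Jup (0.10), whose products bind the cadherin tail or link it to actin, did not pass the test. The catenin gene Ctnnd1 was lower in ESCs by less than 2-fold (-0.77; adjusted p = 0.0344 in limma). Afdn of the same list was higher in ESCs by less than 2-fold (0.85; adjusted p = 0.0338 in limma). Of 5 desmosome genes 1 rose, Dsg2 (2.91), a desmosomal cadherin, and the median was 0.48. Of 13 other keratins 5 passed the floor and 1 rose, Krt42 (1.08; under quantile normalization it did not pass). In the EMT list 9 of 11 genes fell in ESCs and none rose (median -4.10). The largest differences were in the mesenchymal cadherin gene Cdh11 (-6.21), the mesenchymal transcription factor gene Prrx1 (-5.44) and S100a4 (-4.98), and the repressor genes that fell included Zeb2 (-4.20), Snai2 (-4.10), Snai1 (-2.08) and Twist2 (-4.52). The difference in Zeb1 was -0.44 (adjusted p = 0.0718 in limma), with 1006 units in 2i ESCs and 809 in S ESCs, against 1144 in 4n 2i MEFs, 1400 in 2n 2i MEFs and 1144 in control MEFs.

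The pair of ESC arrays asks how far these genes differ between the 2i ESC and S ESC samples. The samples also differ in title number, so group and number cannot be told apart here. Esrp1, Cldn6, Epcam and Krt8 were lower in 2i ESCs, while Cdh1 was nearly level. Of 9 genes past the floor, 4 were at least 2-fold lower in 2i ESCs than in S ESCs (Esrp1, Cldn6, Epcam and Krt8), none was 2-fold higher, and 5 lay within 2-fold. Over all 10493 genes past the floor 2.54% were at least 2-fold lower and 2.78% higher. The median log2 difference of the 9 genes was -0.90, against -0.04 over all genes, and 8 of the 9 differences were below 0. Krt19 lay under the floor on both arrays.

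By size, Esrp1 came first of the 4, with a log2 difference of -3.37. Its 2i ESC value of 72.1 lay far under the floor of 240.1 on that array and holds an unknown part of background, so the difference is of the deposited values and no exact fold is given. Cldn6 was 5.69-fold lower (-2.51) and 14th from the lowest of the 10493 differences, Epcam 2.97-fold lower (-1.57) and 89th, and Krt8 2.48-fold lower (-1.31) and 139th, with both values of each above the floor. Cldn7 (-0.90, its 2i ESC value under the floor), Krt18 (-0.64) and Dsp (-0.50) were lower by less than 2-fold. Cdh1 was nearly the same on both arrays (-0.02), and Cldn4 was 1.69-fold higher in 2i ESCs (0.75). The 3 claudins therefore lay far apart in this comparison. With a threshold of 3-fold, 2 genes (Esrp1 and Cldn6) remained lower.

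**Figure D3:**
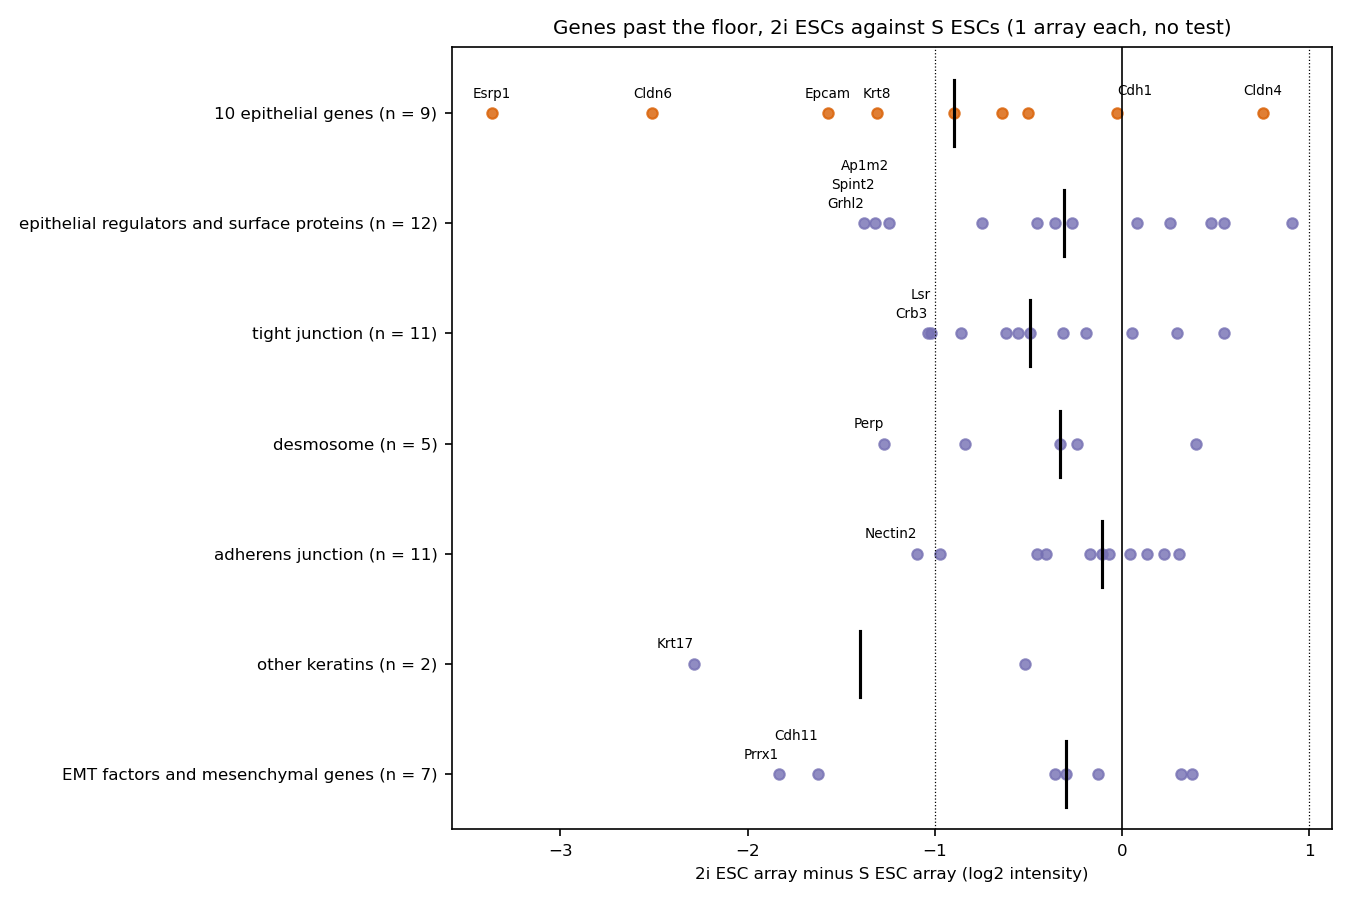
The 2i ESC array minus the S ESC array on the log2 scale, for genes past the floor in each list. Points are genes, black bars are list medians and dotted lines mark 2-fold. Genes at least 2-fold lower are named, as are Cdh1 and Cldn4. The 10 epithelial genes run from Esrp1 (-3.37) to Cldn4 (0.75).

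In the same comparison each list of junction, keratin and regulator genes had 1 or more genes at least 2-fold lower in 2i ESCs. Among epithelial regulators and surface proteins 3 of 12 were at least 2-fold lower in 2i ESCs and none higher, with a median of -0.31. The 3 were the Grainyhead-like gene Grhl2 (-1.38; 133 units in 2i ESCs against 347 in S ESCs), the protease inhibitor gene Spint2 (-1.32) and the clathrin adaptor gene Ap1m2 (-1.24). The list's median was 0.36 among the 6 genes past a floor at the 75th percentile, so its direction depended on the floor. Lower by at least 2-fold were also 2 of 11 tight junction genes, the polarity gene Crb3 (-1.04) and Lsr (-1.02), which came inside 2-fold with a pseudocount of 16, 1 of 5 desmosome genes (Perp at -1.27), 1 of 11 adherens junction genes (the adhesion receptor gene Nectin2 at -1.09) and 1 of 2 other keratins (Krt17 at -2.29; 144 units in 2i ESCs against 708 in S ESCs). None of these lists had a gene at least 2-fold higher in 2i ESCs. The 2i ESC values of Grhl2, Ap1m2, Crb3 and Krt17 lay under the floor and hold an unknown part of background. Over all genes past the floor 2.54% were at least 2-fold lower. Genes lower in 2i ESCs were not particular to these lists. The EMT list had 2 of 7 lower, none higher and a median of -0.30. Fibroblast markers had 1 of 4 lower, none higher and a median of -0.59.

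Markers of other cell types moved between the ESC arrays too. The 8 fibroblast markers summed to 1845 units in 2i ESCs and 2772 in S ESCs, against 46959 to 66303 on the MEF arrays, and the EMT list had Prrx1 (-1.83) and Cdh11 (-1.62) at least 2-fold lower in 2i ESCs. Of the 4 genes lower in 2i ESCs, Esrp1, Cldn6 and Epcam were under the floor on every MEF array and Krt8 was above it. The 6 trophoblast markers, of which 2 and 1 reached the floor, summed to 2018 units in 2i ESCs and 1540 in S ESCs. Cdx2, Elf5, Hand1 and Krt7 lay under the floor on both. Tfap2c was above it on both, with 942 units in 2i ESCs and 760 in S ESCs. Gata3 was higher in 2i ESCs (1.61; 468.5 units in 2i ESCs against 152 in S ESCs). The 6 primitive endoderm markers summed to 1414 units in 2i ESCs and 1592 in S ESCs, with 2 and 4 of them at the floor. Sox17 and Foxa2 lay under the floor on both. Dab2 was lower in 2i ESCs (-2.02), and Gata6 (0.46) and Gata4 (0.26) were above 0 by less than 2-fold. The 7 mesothelium markers summed to 1552 units in 2i ESCs and 1248 in S ESCs, with 2 of 7 at the floor on each and Msln higher in 2i ESCs (2.28; 721 units in 2i ESCs against 148 in S ESCs), and the 4 epidermis markers were all under the floor on both. The part of these cell types in the differences was not tested. The 2i ESC values of Prrx1, Cdh11 and Dab2 and the S ESC values of Gata3 and Msln lay under the floor and hold an unknown part of background. In bulk RNA, fewer cells of a type and less RNA per cell cannot be told apart.

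Among the MEF arrays the adhesion and claudin genes stayed under the floor, so only keratins and Dsp could be described. Against control MEFs, none of 4 genes past the floor was at least 2-fold different in 2n 2i MEFs, where 1.48% of 10131 genes were higher and 0.434% lower. In 4n 2i MEFs 1 of 4 was lower, Dsp, and none higher, where 5.26% of 10304 genes were higher and 3.44% lower. Against 2n 2i MEFs, none of 3 genes was 2-fold different in 4n 2i MEFs, where 3.34% of 10280 genes were higher and 2.36% lower. The comparisons with control MEFs share the control array.

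Krt8 was highest in 4n 2i MEFs and lowest in control MEFs. Its log2 difference from control MEFs was 0.92 in 4n 2i MEFs (1.89-fold) and 0.43 in 2n 2i MEFs (1.35-fold), and it was 0.49 in 4n against 2n 2i MEFs. Krt18 had identical values in 4n and 2n 2i MEFs, 0.08 above control MEFs. Krt19 ran the other way by small amounts, -0.34 in 4n 2i MEFs and -0.08 in 2n 2i MEFs against control MEFs. Dsp was 2.76-fold lower in 4n 2i MEFs (-1.47) and 1.67-fold lower in 2n 2i MEFs (-0.74) than in control MEFs. Its control value of 234.6 was close to the floor of 217.9, and both other values lay under their floors.

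Several other genes of the lists differed between the MEF arrays. Krt14, a keratin of stratified epithelia, had 584 units in 4n 2i MEFs, 275 in 2n 2i MEFs and 142 in control MEFs (log2 2.03 and 0.95 for 4n and 2n against control). Krt7, a keratin of simple and glandular epithelia, had 606, 336 and 188 units in the same order (1.68 and 0.83). Perp had 486 units in 4n 2i MEFs, 1207.5 in 2n 2i MEFs and 2198 in control MEFs, which put it 2.17 lower on the log2 scale in 4n 2i MEFs than in control MEFs. Of 3 desmosome genes past the floor in 4n 2i MEFs against control MEFs, all 3 differences were below 0, with a median of -0.72. F11r, a tight junction adhesion molecule gene, had 1463 units in 4n 2i MEFs, 645 in 2n 2i MEFs and 539 in control MEFs, and Cldn11 was 1.72 higher on the log2 scale in 4n 2i MEFs than in control MEFs. Spint2 had 460 units in 4n 2i MEFs, 184 in 2n 2i MEFs and 212 in control MEFs. The control MEF values of Krt14, Krt7, Cldn11 and Spint2 lay under the floor. No gene of the 6 lists was 2-fold different in 2n 2i MEFs against control MEFs, and adherens junction genes had none in 4n 2i MEFs either. In the EMT list 1 of 11 was lower in 4n 2i MEFs than in control MEFs, S100a4 (-2.48), a calcium-binding protein gene of motile fibroblasts.

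**Figure D4:**
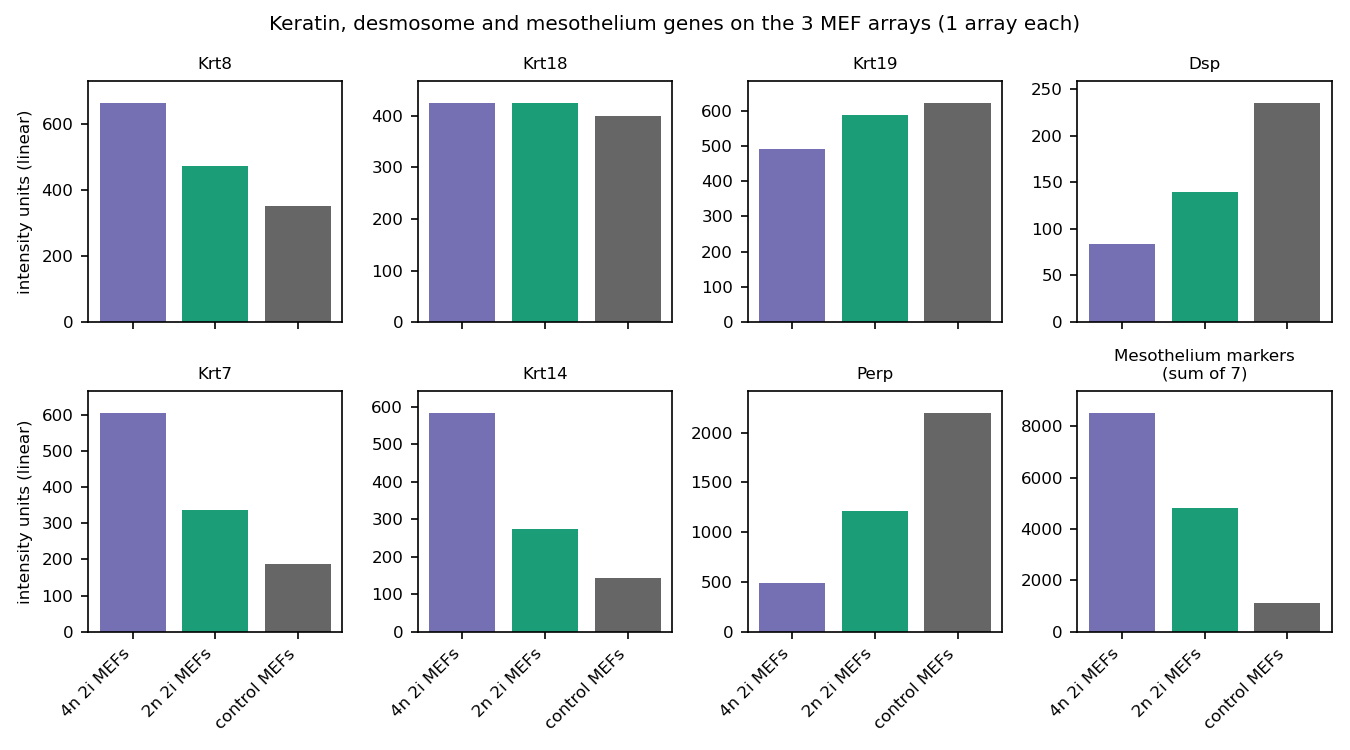
Intensity (linear axis from 0) of keratin and desmosome genes and the summed intensity of 7 mesothelium markers on the 3 MEF arrays, 1 array per bar. Krt8, Krt7, Krt14 and the mesothelium sum share an order with 4n 2i MEFs highest. The sums of fibroblast, primitive endoderm and epidermis markers, not drawn, have that order too. Krt19, Dsp and Perp are highest in control MEFs, and Krt18 is nearly level.

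The mesothelium, the keratin-containing lining of body cavities, was among the cell types whose markers were examined. Its 7 markers summed to 8526 units in 4n 2i MEFs and 4807 in 2n 2i MEFs, against 1125 in control MEFs, and 6, 5 and 1 of them reached the floor in that order. Upk3b had 2387 units in 4n 2i MEFs and 1195 in 2n 2i MEFs, against 160 in control MEFs. An order with 4n 2i MEFs highest and control MEFs lowest was not particular to mesothelium. The fibroblast markers summed to 66303, 51773 and 46959 units in 4n 2i, 2n 2i and control MEFs. Primitive endoderm markers summed to 7344, 5557.5 and 5371 units, and epidermis markers, which include Krt14, to 884, 589 and 450. Trophoblast, macrophage and endothelium sums had other orders. The 4 macrophage markers summed to 5167 units in 4n 2i MEFs, 619 in 2n 2i MEFs and 731 in control MEFs. Krt14 alone of the 4 epidermis markers reached the floor on a MEF array, and Trp63 and Krt5 lay under it on all. The part of these cell types in the keratin and Dsp values was not tested.

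The genes most like Cdh1 in pattern over the 5 arrays, by the root mean square difference of mean-centred log2 values among 11420 genes, were the pluripotency factor gene Esrrb (0.12), the piRNA pathway gene Tdrd12 (0.15) and Tcl1 (0.16), an Akt co-activator gene. Esrrb had 4155 units in 2i ESCs and 4930 in S ESCs, against 77.4 on each MEF array. The nearest to Cdh1 among the other 9 genes was Cldn4 (0.96). For Krt8 they were the actin regulator gene Cyfip2 (0.18), the G protein gene Gna14 (0.21) and Plekhb1 (0.22), while Cldn7 (0.32) and Krt18 (0.38) were nearest among the other 9. The likeness rests on 5 arrays, of which the MEF values were identical for Cdh1 and Esrrb.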

How the data were processed

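Values are the intensities on a linear scale that the authors deposited, 28853 probe sets by 5 arrays in 1 table. Per the labels' protocols, total RNA was extracted with a column kit and biotinylated for whole-transcript arrays. Background correction, summarisation and normalization were not given in the sources used here. Tests used log2(value + 1). The platform table gave a single gene for 21789 probe sets, more for 1621 and no gene for 5443, and 21698 were matched through Entrez Gene numbers to RefSeq GRCm38.p6 symbols. For 999 genes with several probe sets the brightest was used. ESC and MEF arrays were compared with limma (lmFit and eBayes, two-sided, 3 residual degrees of freedom) over genes at or above the floor on at least 1 array, with Benjamini-Hochberg adjustment over all of them. For single arrays set against each other, log2 differences past 2-fold are given and nothing was tested. Promoter windows came from RefSeq. The 10 genes and the lists were chosen with earlier results of these data known. Named list genes were, for each list and comparison, up to 6 with the largest differences among those called, apart from the catenin genes, Afdn, Zeb1, Snai1 and cell type markers, which were chosen after their values were seen. Genes like Cdh1 or Krt8 were the 3 nearest each, leaving out clone-named and predicted genes. Alternatives were a pseudocount of 16, 3-fold, the mean of probe sets, quantile normalization, no floor or one at the 75th percentile, an intensity trend with a robust prior, and leaving out each array. Software was Python 3.11.15, numpy 2.4.6, pandas 2.3.3, matplotlib 3.10.9, R 4.3.3 and limma 3.58.1.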

Additional observations from a re-analysis of the deposited data

How the results depend on the processing

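All 59 values of single-gene ESC and MEF differences held direction and call under the alternatives that keep every array, other than 3-fold. All 120 values of single-gene differences between pairs of arrays moved by less than 0.31 log2. That is the SD over genes of the 2n 2i MEF and control MEF difference. Each of the 10 genes had 1 probe set, so the mean of probe sets could not move any of these differences. Changes of floor, the robust prior and the restriction to 3 distinct MEF values could alter calls only. Size and direction were therefore tested only by quantile normalization and the larger pseudocount. The larger pseudocount cannot move a difference between identical MEF values. Leaving out an array, the count of genes higher in ESCs ran from 3 to 7 and the count lower stayed at 1. With only the genes that had 3 distinct MEF values, an alternative chosen after seeing the data, 3 of the 10 genes could be tested and 1 was higher, Dsp. The count lower in ESCs was 0 with a floor at the 75th percentile, where Krt19 was not tested, and 0 at 3-fold. In 2i ESCs against S ESCs the count lower was 2 at 3-fold. In 4n 2i MEFs against control MEFs it was 0 at 3-fold and 0 with the higher floor, which none of the 10 genes passed. No paired analysis was possible because each group had 1 array. Without detection calls, values under the floor have an unknown share of background, which limits the folds of Cdh1, Epcam, the claudins and Esrp1 against MEFs.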
